A study of Mus musculus with 2 samples.

Results

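Tumor blood endothelial cells (BECs) that carried the transcripts of *Apln* and *Angpt2* were examined in mouse tumors by single-cell RNA sequencing (scRNAseq). Of 22700 cell barcodes in 2 libraries, 17556 passed a blood endothelial gate, and 2334 of these were the Apln-Angpt2 BECs described here, 1359 from the PyMT library and 975 from the KPC library. A gate cell had at least 500 detected genes, less than 10% of its unique molecular identifiers (UMIs, counts of single RNA molecules) from mitochondrial genes, at least 2 UMIs summed over the endothelial genes *Pecam1*, *Cdh5* and *Egfl7*, and at most 1 UMI summed over *Ptprc*, *Col1a2*, *Epcam*, *Mmrn1* and *Notch3*, which mark immune, fibroblast, epithelial, lymphatic and mural cells. An Apln-Angpt2 BEC also had at least 3 UMIs summed over *Apln* and *Angpt2*, and at most 1 each for *Ackr1* plus *Selp* (venules), *Gja5* plus *Sema3g* plus *Fbln5* (arteries), and *Top2a* plus *Mki67* (cell division).

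Both libraries came from wild-type (WT) C57BL6 female mice that were 6 weeks old when they received 100000 tumor cells orthotopically, and tumors were taken 10 days later. PyMT is a mammary tumor line from mice with a polyoma middle T transgene in the mammary gland, and KPC is a pancreatic tumor line. PyMT tumors were digested with collagenase D at 400 U/mL and KPC tumors at 500 U/mL, and cells positive for CD45, EpCAM, Ter119, podoplanin or Annexin V were removed before endothelial cells were sorted. Tumor type, tumor cell line, enzyme dose and library cannot be told apart. There was 1 library per tumor model, and the number of mice behind each was not given in the sources used here. No difference could therefore be tested between animals: no p-value is given, and each 95% interval covers counting error only.

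Tip cells lead new vessel sprouts. They extend filopodia toward vascular endothelial growth factor (VEGF), hold neighbouring cells back as stalk cells through Notch, and loosen and rebuild the basement membrane as they advance. *Apln* encodes apelin, the secreted ligand of the receptor Aplnr, and *Angpt2* encodes angiopoietin 2, which competes with angiopoietin 1 for the receptor Tek. Both are widely used as markers of sprouting endothelium in tumors, and tip cells in retina and tumors are known for a gene set that includes *Esm1*, *Dll4*, *Pgf* and *Cxcr4*.

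The Apln-Angpt2 BECs made up a similar share of the gate in both libraries, 13.1% (95% Clopper-Pearson interval, 12.5 to 13.8) of 10352 cells in PyMT and 13.5% (12.8 to 14.3) of 7204 cells in KPC. They were deeper than the rest of the gate, with a median of 4960 UMIs per cell against 3849 in PyMT and 4713 against 2605 in KPC. Leaving out the 1149 and 2578 cells with under 2000 UMIs gave shares of 14.3% of 9203 cells in PyMT and 19.7% of 4626 cells in KPC, and thinning these cells to 2000 UMIs before the rule gave 6.86% (6.35 to 7.39) and 12.2% (11.3 to 13.2). The shares were thus alike over all gate cells and apart among deeper cells, thinned or not. Barcodes shared by both libraries numbered 170 among all cells and 2 among the Apln-Angpt2 BECs.

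Most members carried UMIs of both ligands, 846 of 1359 (62.3%) in PyMT and 678 of 975 (69.5%) in KPC. *Apln* without *Angpt2* was seen in 30.8% and 23.2%, and *Angpt2* without *Apln* in 6.92% and 7.28%. The threshold cut a continuous range. In PyMT, 408 members stood at exactly 3 UMIs and 776 cells that met the other conditions stood just outside at 2, and in KPC these numbers were 186 and 295. Dividing cells formed the largest group with enough *Apln* and *Angpt2* that was left out, 568 of the 2062 gate cells at 3 UMIs or more in PyMT and 327 of 1424 in KPC. The rule itself set *Apln* at 785 CPM (the UMIs of a gene scaled to a common total of UMIs in each group of cells) in members against 144 in the other gate cells of PyMT, and at 1032 against 159 in KPC. For *Angpt2* these levels were 349 against 77.1 and 572 against 80.8 CPM. The cells were chosen by these values, which are therefore no findings.

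All other genes were compared between members and the remaining gate cells of the same library, 8993 in PyMT and 6229 in KPC. A gene was called higher or lower when its CPM differed by 1.5-fold (0.58 on the log2 scale) or more, among 6665 genes detected in at least 5% of gate cells of both libraries and not used by the rule. In PyMT 25 genes were called higher (0.375% of genes tested) and 171 lower (2.57%), and in KPC 169 were higher (2.54%) and 424 lower (6.36%). In both libraries 21 were higher (0.315%) and 152 lower (2.28%). By the rule, members had been cleared of arterial, venular and dividing cells, and the comparison cells had not. Beside this stands a comparison with the gate cells that met the same 3 exclusions. In it 65 genes (0.975%) were higher and 94 (1.41%) lower in PyMT, and 228 (3.42%) higher and 524 (7.86%) lower in KPC. Lower calls were thus fewer than against all other gate cells in PyMT and more in KPC.

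*Esm1* ranked first among the named higher genes. *Esm1*, which encodes the proteoglycan endocan and is a known tip cell gene (chr13:113209659-113218098, plus strand, GRCm38), reached 476 CPM in members and 132 CPM in other gate cells of PyMT, a log2 ratio of 1.85 (1.79 to 1.91). In KPC it reached 1066 and 297 CPM, a log2 ratio of 1.84 (1.79 to 1.89). Against all other gate cells the ratio was thus nearly equal in the libraries, although the level in KPC was higher in both groups of cells. Against cells with the same exclusions it was not, at 1.98 (1.91 to 2.05) in PyMT and 1.52 (1.46 to 1.58) in KPC. After thinning to 2000 UMIs per cell, an *Esm1* UMI was found in 39.9% of members (37.3 to 42.6), 15.3% of other gate cells and 4.21% of venular BECs in PyMT, and in 62.9% (59.7 to 66.1), 24.2% and 4.86% in KPC. Before thinning these shares were 55.6%, 23.9% and 6.57% in PyMT and 75.0%, 29.9% and 9.81% in KPC. Thinning left out 41, 1108 and 65 shallower cells of these groups in PyMT and 63, 2515 and 97 in KPC. Median depths of the venular cells, the class in which the gene was lowest, were 3677 and 3937 UMIs.

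*Pgf*, which encodes placental growth factor, a ligand of the VEGF receptor Flt1 (chr12:85166635-85177790, minus strand), stood at 119 against 40.8 CPM in PyMT and 127 against 16.96 CPM in KPC, log2 ratios of 1.54 and 2.90. Its level in members was alike in the libraries, while the level in the other gate cells was not. In KPC a *Pgf* UMI was found in 20% of members and 3.07% of other gate cells. The gene thus passed the 5% detection limit over all gate cells of KPC (5.36%) only through members. *Edn1*, the precursor of the vasoconstrictor endothelin 1, stood at 60.6 against 29.5 CPM in PyMT and 277 against 65.7 CPM in KPC (log2 ratios 1.04 and 2.08). *Pdgfb*, the ligand by which sprouting endothelium recruits pericytes, was at 137 against 83.4 CPM and 140 against 78.7 CPM (0.72 and 0.83).

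*Thbs1*, *Ctgf* and *Cyr61* encode matricellular proteins. *Thbs1* (thrombospondin 1) had log2 ratios of 1.47 in PyMT and 1.35 in KPC, *Ctgf* had 1.49 and 2.17, and *Cyr61* had 0.65 and 0.75. In PyMT *Ctgf* was detected in 14.7% of members and 4.54% of other gate cells. It passed the 5% detection limit over all gate cells of PyMT (5.87%) only through members. *Prss23*, a secreted serine protease, was at 481 against 252 CPM in PyMT and 781 against 366 CPM in KPC. The other named genes were *Ercc1* (DNA repair), *Tnfrsf9* (the costimulatory receptor 4-1BB), *Gpx8* (a peroxidase of the endoplasmic reticulum), *Cdc42ep3* (a Cdc42 effector) and *Fam57b*, with log2 ratios from 0.69 to 0.81 in PyMT and from 0.81 to 1.23 in KPC. Of the 15 named higher genes, 11 overlap another counted gene on the opposite strand, and strand use in counting was not given in the sources used here.

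**Figure D1:**
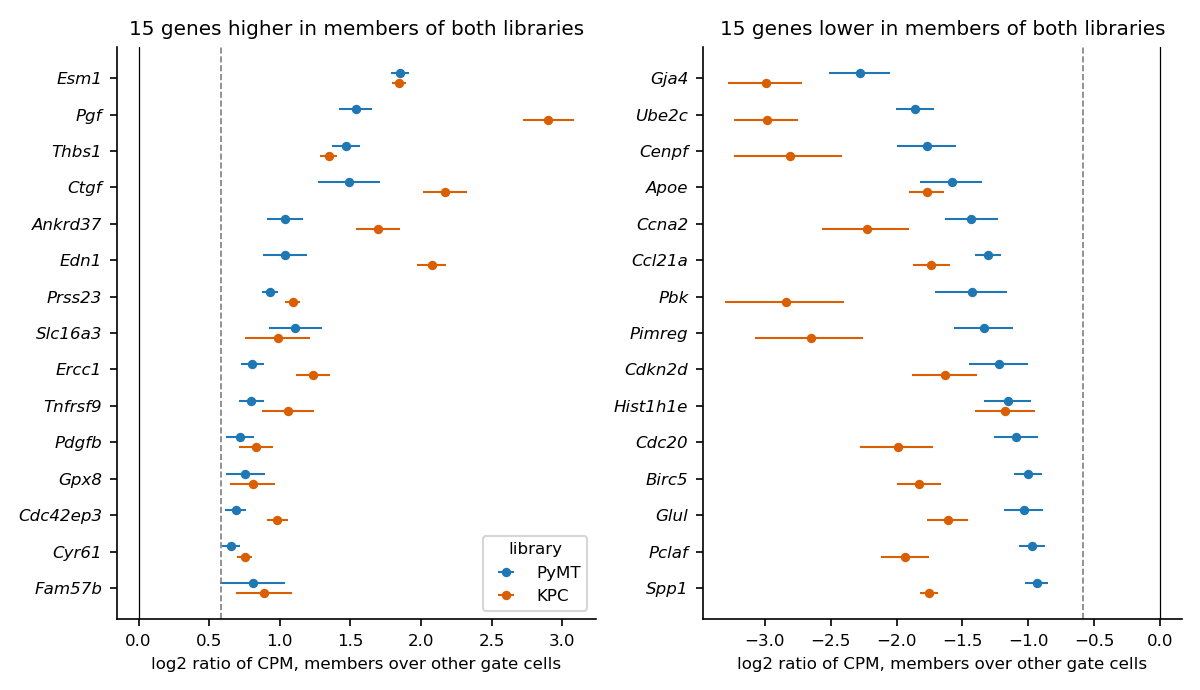
Log2 ratio of CPM in Apln-Angpt2 BECs over other gate cells (horizontal axis) for the 15 named genes on the higher and the lower side in PyMT and KPC, with 95% counting intervals and dashed lines at 1.5-fold. The higher genes span 0.65 to 1.85 in PyMT and 0.75 to 2.90 in KPC, and the lower genes span -2.28 to -0.94 and -2.99 to -1.17.

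*Ankrd37*, an ankyrin repeat gene known as a target of hypoxia-inducible factor, and *Slc16a3*, which encodes the lactate exporter MCT4, were the metabolic genes among those named. *Ankrd37* (chr8:45996902-46005707, minus strand) was at 94.7 against 46.1 CPM in PyMT and 110 against 34.0 CPM in KPC, log2 ratios of 1.04 and 1.70. *Slc16a3* (chr11:120948480-120960868, plus strand) was at 42.9 against 19.9 CPM and 41.3 against 20.9 CPM, log2 ratios of 1.11 and 0.99. Their promoters are shown with that of *Esm1*, the leading gene, as the 250 bases before the RefSeq transcript start in GRCm38.p6, 5′ to 3′ on the strand of the gene. Capitals mark ACGTG or GCGTG on either strand (CACGT or CACGC when read on the strand printed), the core letters bound by hypoxia-inducible factor. The windows are chr8:45999851-46000100 (minus), chr11:120948817-120949066 (plus) and chr13:113209409-113209658 (plus).
Ankrd37: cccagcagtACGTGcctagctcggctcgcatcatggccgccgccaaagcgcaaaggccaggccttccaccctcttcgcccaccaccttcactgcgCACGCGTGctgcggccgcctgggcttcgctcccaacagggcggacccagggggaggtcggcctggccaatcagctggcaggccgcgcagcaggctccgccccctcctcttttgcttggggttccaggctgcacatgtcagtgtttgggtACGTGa
Slc16a3: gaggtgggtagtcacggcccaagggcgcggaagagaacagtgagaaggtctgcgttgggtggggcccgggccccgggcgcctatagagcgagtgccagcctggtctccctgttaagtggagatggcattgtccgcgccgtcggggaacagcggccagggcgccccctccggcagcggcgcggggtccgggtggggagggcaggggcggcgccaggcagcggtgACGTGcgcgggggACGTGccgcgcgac
Esm1: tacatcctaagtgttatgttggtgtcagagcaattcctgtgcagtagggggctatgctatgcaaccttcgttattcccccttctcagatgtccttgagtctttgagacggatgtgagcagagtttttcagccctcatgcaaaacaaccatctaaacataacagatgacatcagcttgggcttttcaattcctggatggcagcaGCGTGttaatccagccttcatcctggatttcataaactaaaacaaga
The *Ankrd37* window held ACGTG 2 times and GCGTG 2 times, the latter overlapping each other on opposite strands, the *Slc16a3* window held ACGTG 2 times, and the *Esm1* window held GCGTG once. Among the 10 named higher genes with a RefSeq promoter, 6 (60%) held either motif, against 65.0% of 5315 tested genes and 41.5% of 27025 genes in all. The share among the named genes was thus no higher than among tested genes in general.

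The list of 25 glycolysis and hypoxia genes had 18 members that could be tested. Only *Ankrd37* and *Slc16a3* were past 1.5-fold in PyMT, but 16 of 18 had a ratio above 0 with a list median of 0.33, beside a median of -0.03 over all tested genes. In KPC 4 were higher, these 2 with *Pkm* (pyruvate kinase, 0.65) and *Slc2a1* (the glucose transporter GLUT1, 0.60), 17 were above 0 and the median was 0.44, beside -0.04 over all tested genes. *Ddit4*, an mTOR inhibitor induced by stress and hypoxia, went the other way, with log2 ratios of -0.51 in PyMT and -0.95 in KPC, the latter past the lower limit. Against cells with the same exclusions 3 were higher and 1 lower in PyMT, where *Mif* was at 0.61 and *Ddit4* at -0.67, and 7 were higher and 1 lower in KPC. Beside these counts, 0.375% of all tested genes were higher and 2.57% lower in PyMT, and 2.54% and 6.36% in KPC. With the same exclusions the shares were 0.975% and 1.41% in PyMT, and 3.42% and 7.86% in KPC. *Adm* (adrenomedullin, a vasodilator peptide) was too rarely detected to enter the test. Its level was 33.2 against 10.6 CPM in PyMT and 58.4 against 8.39 CPM in KPC.

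The label of tip-like cells was checked against 30 tip cell genes, 27 of which could be tested. In PyMT 3 were higher (*Esm1*, *Pgf* and *Pdgfb*) and none lower, 21 had a ratio above 0 and the median was 0.12. In KPC 10 were higher and none lower, and the median was 0.45. Over all tested genes 0.375% were higher in PyMT and 2.54% in KPC, with medians of -0.03 and -0.04. Against cells with the same exclusions 3 were higher and none lower in PyMT, with a median of 0.021, and in KPC 9 were higher and 3 lower (*Igfbp3* at -1.15, *Kdr* at -0.80 and *Nrp1* at -0.75), with a median of 0.35, beside 0.975% and 3.42% of all tested genes higher there and all-gene medians of -0.0082 and -0.04. The 7 genes added in KPC were *Trp53i11* (1.34), *Chst1* (0.89), the laminin gene *Lama4* (0.88), the filopodial actin bundler *Fscn1* (0.78), *Rhoc* (0.74), *Robo4* (0.69) and *Nid2* (0.61). Several defining tip cell genes did not differ by 1.5-fold from all other gate cells. *Dll4*, the Notch ligand of tip cells, was at 136 against 114 CPM in PyMT and 138 against 108 CPM in KPC. *Kdr*, the main VEGF receptor, was at 287 against 294 CPM and 418 against 553 CPM. The log2 ratios were -0.13 and -0.32 for *Nrp1*, -0.18 and 0.10 for *Unc5b*, and -0.18 and -0.01 for *Cd34*. *Cxcr4* was detected too rarely to be tested, at 22.5 against 19.8 CPM in PyMT and 24.8 against 11.1 CPM in KPC. In KPC *Kdr* was at 730 CPM and *Nrp1* at 400.3 CPM in cells with the same exclusions, against 418 and 237 CPM in members. Both genes were thus lower in KPC members in either comparison, but past 1.5-fold only with the same exclusions. The list is not independent of the other lists, as 23 of its 30 genes also stand in another one.

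Neither *Aplnr* nor *Tek* was higher in members. *Aplnr*, the receptor of apelin, was at 276 CPM in members and 387 CPM in other gate cells of PyMT, and at 325 and 395 CPM in KPC, log2 ratios of -0.49 and -0.28. *Tek*, the angiopoietin receptor, was at 43.5 against 59.0 CPM in PyMT (-0.44) and 48.7 against 108 CPM in KPC (-1.15), where it was past 1.5-fold lower, as was the phosphatase gene *Ptprb* (-0.76). *Angptl4*, a secreted inhibitor of lipoprotein lipase, was higher in both (0.70 and 0.73). Among 7 tested VEGF ligands and receptors, *Pgf* was the gene called higher, and *Vegfc* was lower in both (-0.62 and -1.03). Against cells with the same exclusions *Pgf* stayed higher in both, at 1.28 in PyMT, *Vegfc* at -0.52 in PyMT and thus no longer called, and 4 of the 7 genes were lower in KPC, *Vegfc* (-1.16), *Flt1* (-1.08), *Kdr* and *Nrp1*. The receptor *Flt1* was at 0.09 in PyMT and at -0.63, past the lower limit, in KPC. Of 10 tested Notch genes, *Hey1*, a Notch target, was lower in both (-0.72 and -0.80), and *Notch4* was higher in KPC (0.59). Among 14 guidance genes the arterial ligand gene *Efnb2* was lower in both (-0.59 and -0.74), *Ephb4*, *Plxnb2* and *Sema6a* were lower in KPC, and *Robo4* was higher in KPC. The KPC calls of *Notch4*, *Plxnb2* and *Robo4* were lost against cells with the same exclusions. Among all tested genes 0.375% were higher and 2.57% lower in PyMT, and 2.54% and 6.36% in KPC. With the same exclusions these shares were 0.975% and 1.41% in PyMT, and 3.42% and 7.86% in KPC.

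Matrix and cytoskeletal genes had more calls in KPC, as did all tested genes. Of all tested genes 0.375% were higher and 2.57% lower in PyMT, and 2.54% and 6.36% in KPC. With the same exclusions the shares were 0.975% and 1.41% in PyMT, and 3.42% and 7.86% in KPC. Of 25 tested basement membrane and matrix genes none was higher in PyMT and 3 were in KPC, *Lama4*, *Lamc1* (0.67) and *Nid2*. The lower genes were *Mgp* in PyMT and *Mgp*, *Bgn* and *Lamb2* in KPC. With the same exclusions *Mgp* was lower in PyMT, and in KPC 1 gene (*Lama4*) was higher and 4 were lower. Collagen IV was nearly level in PyMT, with *Col4a1* and *Col4a2* at 0.01. In KPC *Col4a1* was at 0.31 and *Col4a2* at 0.41, above 0 but short of 1.5-fold. Of 24 actin and migration genes none was higher in PyMT, although 22 were above 0 with a median of 0.13. In KPC 8 were higher, among them *Tpm1* (1.34), *Fscn1*, *Rhoc* and *Tubb6* (0.61), and the median was 0.33. Against cells with the same exclusions 1 was higher in PyMT and 12 in KPC. *Ezr*, which links the membrane to actin, was lower in both (-0.81 and -1.95). Among 14 tested proteases and inhibitors, *Plat* (tissue plasminogen activator) was lower at -0.72 and -0.86 and *Timp2* at -0.83 and -0.93, and against cells with the same exclusions the KPC call of *Timp2* was lost. With these exclusions 2 of the proteases and inhibitors were lower in PyMT, and 2 were higher and 4 lower in KPC. *Itgb3*, the beta chain of the vitronectin receptor, was the integrin gene past 1.5-fold against all other gate cells, in KPC at 0.98 and at 0.49 in PyMT. Against cells with the same exclusions no integrin gene was called in PyMT, and 2 were higher and 1 lower in KPC.

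**Figure D2:**
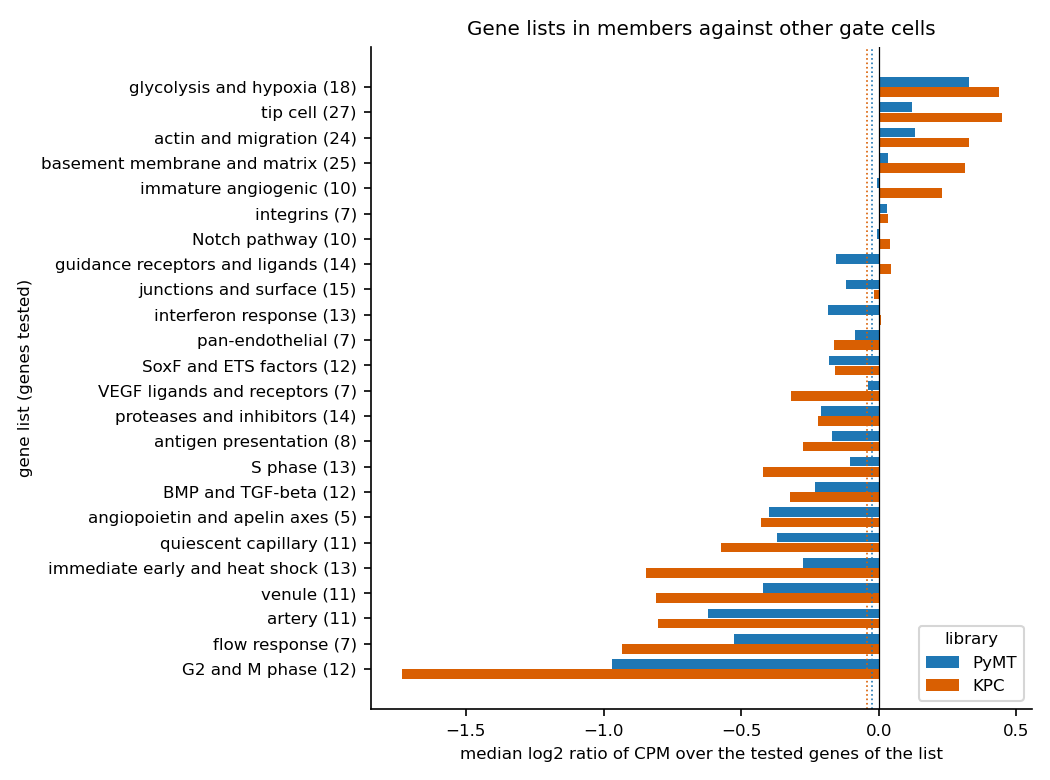
Median log2 ratio of CPM in Apln-Angpt2 BECs over other gate cells for each gene list with at least 5 tested genes, in PyMT and KPC, with dotted lines at the medians of all 6665 tested genes (-0.03 and -0.04). The comparison cells plotted include dividing cells. Against them glycolysis and hypoxia genes lie highest in PyMT with a median of 0.33, and G2 and M phase genes lie lowest in both libraries at -0.97 and -1.73, an order that changed with the same exclusions on both sides.

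The lower side was led by *Gja4*, the gap junction protein connexin 37 of arterial and capillary endothelium, at 20.99 against 102 CPM in PyMT and 19.9 against 159 CPM in KPC (log2 ratios -2.28 and -2.99). *Apoe* (apolipoprotein E) had ratios of -1.58 and -1.77, *Glul* (glutamine synthetase) -1.04 and -1.61, and *Spp1* (osteopontin) -0.94 and -1.76. A *Spp1* UMI was found in 23.8% of members and 20.1% of other gate cells in PyMT and in 25.4% and 20.4% in KPC. Members were deeper, and these shares were not thinned to a common depth. Without cells that held at least 2 UMIs over *Krt8*, *Krt18*, *Prox1*, *Lyve1*, *Rgs5* and *Col1a1*, *Spp1* was at -0.46 and -0.34 and no longer called. Of the 15 named lower genes, 9 belong to DNA replication, chromatin and mitosis of dividing cells, such as *Ube2c* (-1.86 and -2.99) and *Cenpf* (-1.77 and -2.81). Against gate cells with the same exclusions *Ube2c* was at 0.59 and *Cenpf* at 0.11 in PyMT, and at -0.11 and -0.21 in KPC, where *Pbk* (-0.57), *Pimreg* (-0.28) and *Cdc20* (-0.25) also stayed below 0. None of the 9 genes was past 1.5-fold lower there in either library. The cell cycle lists also depended on the comparison cells. Among all tested genes 2.57% were lower in PyMT and 6.36% in KPC. With the same exclusions 0.975% were higher and 1.41% lower in PyMT, and 3.42% and 7.86% in KPC. Of 12 tested G2 and M phase genes 10 were lower in PyMT and 11 in KPC, but with the same exclusions 2 were higher and none lower in PyMT and 2 were lower in KPC, with medians of 0.15 and -0.09. Of 13 tested S phase genes 1 was lower in PyMT and 4 in KPC (medians -0.11 and -0.42), but with the same exclusions 2 were higher and none lower in each library, with medians of 0.47 and 0.25. The PyMT S phase median was then above that of the glycolysis and hypoxia genes (0.35). *Cdkn2d*, an inhibitor of cell cycle kinases and also among the named lower genes (-1.22 and -1.63), was at -0.080 in PyMT and at -0.87 in KPC there, still lower in the latter. *Gja4*, *Apoe* and *Glul* kept their direction there, at -2.16, -1.54 and -1.11 in PyMT and -3.23, -2.23 and -1.98 in KPC. Against the same comparison cells the folate enzyme gene *Mthfd2* was higher, at 0.92 in PyMT and 1.68 in KPC, as were *Odc1* (0.79 and 1.37) and *Srm* (0.72 and 0.94), which encode enzymes of polyamine synthesis.

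Genes of flow response and of resting capillaries were looked at next. Among all tested genes 2.57% were lower in PyMT and 6.36% in KPC, and 1.41% and 7.86% with the same exclusions, so that more lower calls in KPC were general. Of 7 tested genes that respond to flow, 3 were lower in PyMT and 4 in KPC. *Klf2*, the main shear stress factor, was at 361 against 566 CPM in PyMT and 461 against 1021 CPM in KPC (-0.65 and -1.15), and *Klf4* was at -0.90 and -1.47. Of 11 tested quiescent capillary genes 2 were lower in PyMT, the water channel gene *Aqp1* (-0.91) and *Cd300lg* (-0.68). In KPC 5 were lower, among them *Car4* (carbonic anhydrase 4) at 19.8 against 98.9 CPM and the fatty acid transporter gene *Cd36* (-1.54), and 2 were higher, the chemokine gene *Cxcl12* (1.20) and *Gpihbp1* (0.67, a call lost with the same exclusions). In PyMT *Car4* was at 322 against 415 CPM. With the same exclusions applied to the comparison cells, 3 flow genes and 4 quiescent capillary genes were lower in PyMT and 5 and 8 in KPC.

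Artery and venule lists were partly fixed by the rule, and their counts stand beside the same shares over all tested genes (2.57% and 6.36% lower, or 1.41% and 7.86% with the same exclusions). Of 11 tested artery genes 7 were lower in PyMT and 8 in KPC, and of 11 tested venule genes 4 and 9 were lower, among them the adhesion molecule genes *Icam1* (-0.78 and -1.75) and *Vcam1* (-0.70 and -1.62). In KPC 1 artery gene was higher, *Cxcl12*, which also stands in the quiescent capillary list, at 467 against 203 CPM. Among all tested genes 2.54% were higher in KPC, or 3.42% with the same exclusions. With the same exclusions 6 and 8 artery genes and 2 and 6 venule genes were lower, and 1 artery gene was higher in KPC. In PyMT *Vcam1* was then at -0.34 and no longer called, and *Icam1* was at -0.60. Of 13 immediate early and heat shock genes none was past 1.5-fold in PyMT and 9 were lower in KPC, among them *Egr1* (-1.48) and *Fos* (-0.85). Induction of such genes by tissue digestion is common, and its part in the KPC values was not tested. None of 12 tested BMP and TGF-beta genes was past 1.5-fold in PyMT, and in KPC *Smad1* (0.65) was higher and *Id2* (-1.53), *Id3* (-0.65) and *Smad7* (-0.94) were lower. With the same exclusions on both sides none was past 1.5-fold in PyMT, and in KPC 1 was higher and 6 were lower, with a median of -0.53.

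Levels of several genes differed along the number of *Apln* and *Angpt2* UMIs, not always in step with it. In cells with 0, 1, 2, 3, 4 to 5 and at least 6 such UMIs, all with the 3 exclusions, *Esm1* in PyMT was at 99.9, 145, 158, 208, 292 and 751 CPM. In KPC it was at 364, 363, 438, 650, 542 and 1368 CPM. Cells just inside the threshold were thus closer to those just outside than to the members with the most UMIs. *Pgf* in PyMT did not separate members with 3 UMIs (43.9 CPM) from cells with none (44.0 CPM), and reached 177 CPM at 6 or more. In KPC it went from 7.79 CPM at 0 to 182 CPM at 6 or more. *Edn1* went from 17.8 to 84.8 CPM in PyMT and from 38.1 to 354 CPM in KPC between the same bins. *Glul* went from 143 to 43.8 CPM in PyMT and from 294 to 55.1 CPM in KPC. *Aplnr* in PyMT was at 398, 374, 396, 363, 292 and 214 CPM over the 6 bins. In KPC it was at 354, 499.8, 509, 423, 438 and 257 CPM, so that each middle bin lay above the cells with none and only the last lay below them. Median UMIs per cell moved with the bins, from 3295 to 5687 in PyMT and from 1688 to 5246 in KPC, and their part in these levels was not tested.

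**Figure D3:**
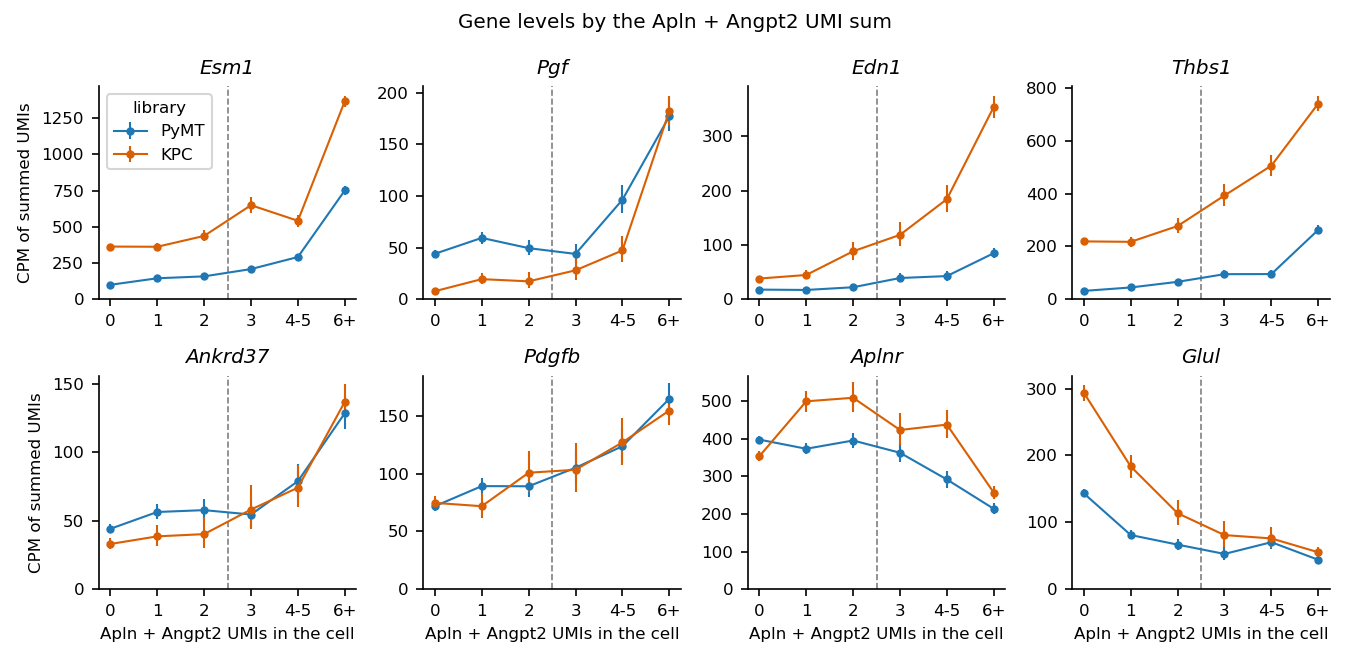
CPM of 8 genes (vertical axis) in gate cells binned by their sum of *Apln* and *Angpt2* UMIs (horizontal axis, 0 to 6 or more) in PyMT and KPC, with 95% counting intervals and a dashed line at the threshold of 3. *Esm1* climbs from 99.9 to 751 CPM in PyMT and from 364 to 1368 CPM in KPC, and *Glul* is lower at 6 or more than at 0 in both.

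Gate cells were also cut into 5 other classes by UMI sums of at least 3: immature BECs (*Kcne3* plus *Mest*), *Car4* BECs (*Car4* plus *Cd300lg*), and venular, arterial and cycling BECs by the genes of the exclusions. The immature and *Car4* classes were further held to at most 1 UMI of *Apln* plus *Angpt2* and to the 3 exclusions, which left 3040 immature BECs in PyMT and 251 in KPC. Classes are ranges of a score and not cell types, and 669 PyMT cells and 16 KPC cells were both immature and *Car4* BECs. In PyMT 75.9% of members and 54.8% of other gate cells also reached 3 UMIs of *Kcne3* plus *Mest*, and in KPC 22.4% and 8.81% did. *Esm1* was at 476 CPM in PyMT members, 163 in cycling, 127 in arterial, 122 in immature, 76.1 in *Car4* and 29.4 in venular BECs. In KPC it was at 1066 CPM in members, 439 in *Car4*, 286 in immature, 260 in cycling, 121 in arterial and 46.9 in venular BECs. *Pgf* had the same leading class, at 119 CPM in PyMT and 127 CPM in KPC members, followed by immature BECs in PyMT (56.6) and cycling BECs in KPC (24.9).

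Other higher genes had a similar or higher level in venular or arterial BECs of at least 1 library. *Edn1* was at 60.6 CPM in PyMT members, but at 200.2 in arterial and 106 in venular BECs, and in KPC at 277 in members and 317 in arterial BECs. *Thbs1* was at 171 CPM in PyMT members and 222 in venular BECs, and in KPC at 632 and 370 CPM. *Cyr61* was at 340 and 604 CPM in members and arterial BECs of PyMT, and at 751 and 1070 CPM in KPC. *Ctgf* was at 33.9 CPM in PyMT members, 32.0 in venular and 33.1 in arterial BECs, and in KPC at 124, 37.8 and 70.6 CPM. Against immature BECs, which they resembled in *Trp53i11* (533 against 530 CPM in PyMT, 456 against 468 CPM in KPC), members had log2 ratios of 2.59 and 2.99 for *Edn1*, 2.74 and 3.32 for *Thbs1*, and 2.54 and 4.89 for *Ctgf*. *Slc16a3* and *Tnfrsf9* in KPC did not differ by 1.5-fold between members and immature BECs (-0.04 and -0.24), and *Dll4* did not in either library (-0.04 and -0.37).

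**Figure D4:**
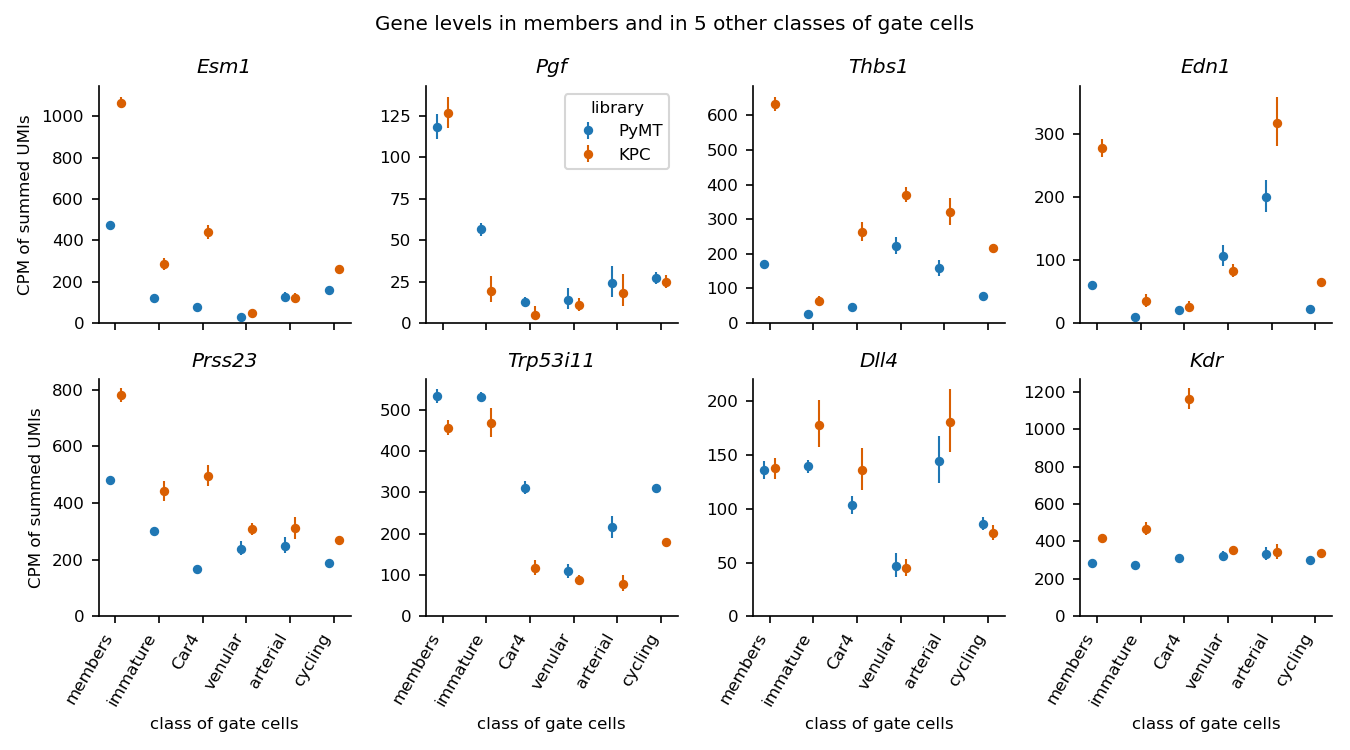
CPM of 8 genes in Apln-Angpt2 BECs and in immature, *Car4*, venular, arterial and cycling BECs of PyMT and KPC, with 95% counting intervals. Members are highest for *Esm1* and *Pgf* in both libraries, whereas arterial BECs are highest for *Edn1*.

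Members differed by which ligand they carried. *Esm1* in PyMT was at 607 CPM in members with both ligands, 230 in those with *Apln* alone and 224 in those with *Angpt2* alone, and in KPC at 1306, 376 and 600 CPM. *Pgf* was at 151, 45.4 and 122 CPM in PyMT and 161, 26.0 and 62.5 CPM in KPC. Members with both ligands were thus highest for both genes. They may also hold more UMIs of the rule genes, and they were deeper. Median UMIs per cell with both ligands, *Apln* alone and *Angpt2* alone were 5245, 4753 and 4027 in PyMT. In KPC these medians were 4940.5, 4386.5 and 4026, and the part of depth was not tested. *Aplnr* was highest with *Apln* alone, at 325 CPM in PyMT and 498 CPM in KPC, against 260 and 280 CPM with both ligands. *Tinagl1*, a matrix protein gene, was also highest with *Apln* alone, at 202 and 355 CPM, against 73.9 and 178 CPM with *Angpt2* alone.

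Members with *Angpt2* alone, 94 cells in PyMT and 71 in KPC, carried lymphatic transcripts. *Prox1*, the master factor of lymphatic identity, was at 127 CPM in PyMT and 147 CPM in KPC, against 1.34 and 0.840 CPM with *Apln* alone and 2.18 and 3.45 CPM with both. The hyaluronan receptor gene *Lyve1* was at 229 and 181 CPM, against 8.46 and 16.0 CPM with *Apln* alone. *Ccl21a*, a chemokine of lymphatic vessels, was at 1149 and 540 CPM, against 60.1 and 37.0 CPM. The blood endothelial gate, which limits *Mmrn1* to 1 UMI, thus let cells with lymphatic markers into this small group. Leaving them out gave shares of 12.2% in PyMT and 12.5% in KPC, 28 and 177 of 6665 tested genes higher, and tip cell medians of 0.13 and 0.47. This setting was chosen after seeing the data. Pericyte genes other than *Notch3* also differed between these groups in KPC. They summed to 478 CPM with *Angpt2* alone, 313 CPM with both ligands and 158 CPM with *Apln* alone. In PyMT these sums were 111, 95.4 and 72.6 CPM.

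**Figure D5:**
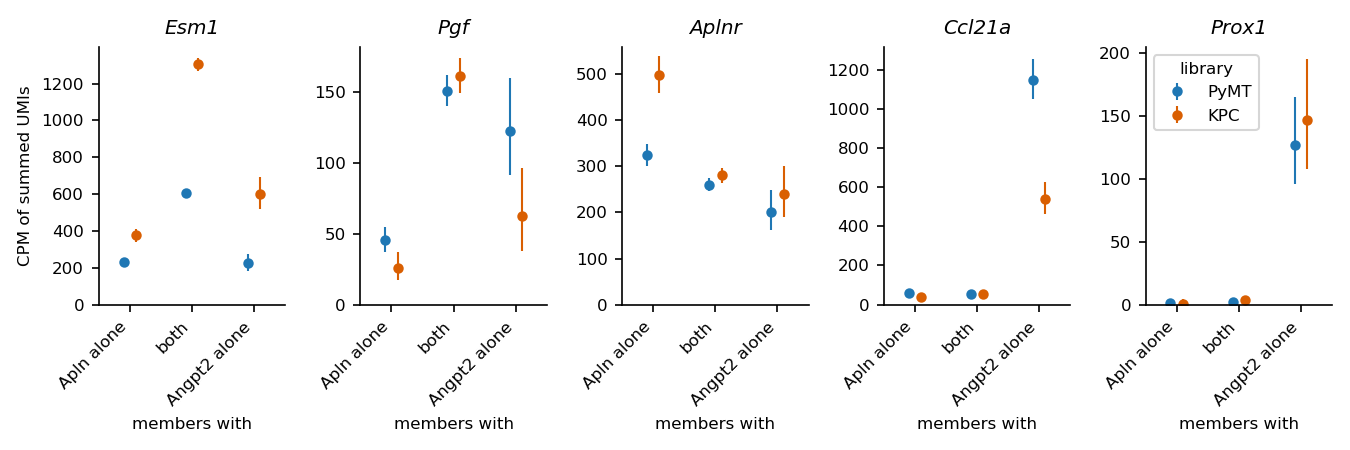
CPM of *Esm1*, *Pgf*, *Aplnr*, *Ccl21a* and *Prox1* in members with *Apln* alone, both ligands or *Angpt2* alone in PyMT and KPC, with 95% counting intervals. *Esm1* is highest with both ligands (607 and 1306 CPM), and *Ccl21a* and *Prox1* stand out with *Angpt2* alone.

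Transcripts of other cell types were measured beside these results, with sums that leave out the gate gene of each list. The 9 lymphatic genes summed to 257 CPM in PyMT members and 549 CPM in other gate cells, and to 216 and 468 CPM in KPC, with *Ccl21a* the most abundant. The 9 pericyte genes summed to 89.6 against 112 CPM in PyMT, where *Kcnj8* was the most abundant and *Cspg4* and *Cox4i2* were at 0 in members. In KPC they summed to 289 against 220.1 CPM, led by *Acta2* at 174 against 103 CPM, while *Pdgfrb* was at 2.34 CPM in members. The 9 epithelial genes summed to 14.2 against 49.1 CPM in PyMT and 238 against 1217 CPM in KPC, where *Krt8* was at 59.1 against 344 CPM and *Krt14* was at 0 in members. In PyMT members *Krt14* and *Krt19* were at 0. The 7 fibroblast genes summed to 30.2 against 46.4 CPM in PyMT, led by *Col3a1* with *Lum* at 0, and to 41.3 against 46.4 CPM in KPC. The 9 immune genes summed to 34.6 against 37.9 CPM in PyMT, led by *Fcer1g*, and to 79.8 against 62.8 CPM in KPC, led by *Lyz2*. The gate genes *Mmrn1*, *Notch3*, *Epcam*, *Col1a2* and *Ptprc* were held low by the rule and measure nothing here. In KPC, keratin transcripts were thus higher in the comparison cells and *Acta2* in members. Leaving out cells with at least 2 UMIs over the 6 genes named with *Spp1*, a setting chosen after seeing the data, kept the calls of all 15 named higher genes and of 14 of the 15 named lower genes in each library, *Spp1* being the exception. The part of *Acta2* was not tested. A level of 0 allows up to 0.389 CPM in PyMT members and 0.539 CPM in KPC members, 3 UMIs over the group.

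Genes called higher in either library mostly had a ratio above 0 in the other. Of the 169 genes higher in KPC, 151 had a ratio above 0 in PyMT, and of the 25 genes higher in PyMT, 24 did in KPC. Over all tested genes the median ratio was -0.03 in PyMT and -0.04 in KPC, so most tested genes were below 0 in each. Across the 6665 genes Pearson's r of the ratios was 0.755, as a description, since genes are not independent replicates. Both ratios also share the depth gap between members and other cells, the rule, and comparison cells without its exclusions. Genes with a large ratio in KPC and a small one in PyMT included the adaptor gene *Lcp2* (1.83 and 0.41), the kinase gene *Dapk2* (1.52 and 0.33) and the intermediate filament gene *Nes* (1.07 and 0.34). *Cxcl12* had opposite signs, 1.20 in KPC and -0.26 in PyMT. The difference between libraries was not tested. In each of the 12 alternative settings that recomputed the ratios, 15 genes were past 1.5-fold higher in both libraries, 14 of them among the 15 named and the other being *Prr5*, and 17 genes were past 1.5-fold lower, 4 of them named (*Gja4*, *Apoe*, *Ccl21a* and *Glul*). *Ccl21a* has near-identical copies in the mouse genome that make its count uncertain. It was lower in CPM (log2 ratios -1.30 and -1.74). A UMI of it was nevertheless found in more members than other cells, 19.8% against 17.5% in PyMT and 16.5% against 13.1% in KPC. Members were deeper, and these shares were not thinned to a common depth.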

How the data were processed

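The deposited matrices hold counts, whole UMIs per gene and cell barcode, which the authors made with Cell Ranger (version 3.0 in the submitters' processing notes, 3.0.2 in the matrix header) on mm10. The 3 prime kit is given as v2 in the labels, and as v3 in the sorting section and v2 in the sequencing section of the study's methods. The PyMT matrix holds 12464 barcodes and 55547926 UMIs, and the KPC matrix 10236 barcodes and 44441942 UMIs, for 31055 genes. Of these, 720 and 645 barcodes were removed for under 500 genes or at least 10% mitochondrial UMIs. Each gene's UMIs were added up within a group of cells and set against all UMIs of that group (CPM), with exact Poisson intervals for levels, exact conditional binomial intervals for ratios and Clopper-Pearson intervals for shares. With 1 library per tumor model no test was run. The 17 genes of the rule and mitochondrial genes were not tested. The 5% detection limit was set over all gate cells, so a gene could pass it through members or other cells alone. Members, gene lists (29 lists, 376 genes) and comparison classes were chosen with earlier results of these data known, so none is independent support. Named genes were the 15 per side with the interval bound farthest from 0 in the weaker library, detected in at least 10% of members (higher side) or other gate cells (lower side), leaving out ribosomal and predicted genes, with list genes and, for members with *Angpt2* alone against *Apln* alone, the 5 per side ranked alike. No doublet caller was run, and leaving out the 8% of gate cells with the most UMIs was an alternative. Positions are from GENCODE M21 (GRCm38). The code was tested on simulated data. Python 3.11.15, numpy 2.4.6, scipy 1.17.1, pandas 2.3.3 and matplotlib 3.10.9 were used.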

Additional observations from a re-analysis of the deposited data

Results flagged for a closer look

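*Igf1*, which encodes insulin-like growth factor 1, was the single gene among 6665 tested that passed 1.5-fold in opposite directions in the 2 libraries. In PyMT it was lower in Apln-Angpt2 BECs, at 10.2 CPM against 22.4 CPM in other gate cells, a log2 ratio of -1.13 (95% counting interval -1.48 to -0.80). In KPC it was higher, at 35.4 against 15.8 CPM, a log2 ratio of 1.17 (0.91 to 1.42). The difference between libraries was not tested, since each tumor model has 1 library.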

How the results depend on the processing

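The 15 named higher genes kept their direction in both libraries in each alternative that recomputed their ratios, and passed 1.5-fold in each except *Fam57b*, at 0.57 in PyMT when cells were thinned before the rule and at 0.54 in KPC against cells with the same exclusions. Numbers of genes called and shares of members moved more. Counts of called genes are out of 6665 genes tested unless another number is given. With a stricter cell filter, 1000 genes and 5% mitochondrial UMIs, the shares were 14.1% in PyMT and 18.6% in KPC. Against cells with the same exclusions, 65 genes were higher and 94 lower in PyMT, and the tip cell medians were 0.021 in PyMT and 0.35 in KPC. There the sign turned in PyMT for *Ube2c* (0.59), *Cenpf* (0.11), *Ccna2* (0.038), *Pbk* (0.52), *Pimreg* (0.13), *Hist1h1e* (0.025), *Birc5* (0.13) and *Pclaf* (0.46). In KPC it turned for *Hist1h1e* (0.094), *Birc5* (0.10) and *Pclaf* (0.26). Arterial, venular and dividing cells were left out together in this setting, and the part of each was not tested. Against cells without *Apln* or *Angpt2* UMIs 79 genes were higher in PyMT and 272 in KPC, with a KPC tip cell median of 0.54. Dropping cells under 2000 UMIs and thinning the others after the rule, which left 4485 genes to test, gave 88 genes lower in PyMT and 262 in KPC, with a KPC tip cell median of 0.31. The same thinning before the rule, again with 4485 genes to test, gave shares of 6.86% and 12.2%. In PyMT 75 genes were then higher and 100 lower, and the KPC tip cell median was 0.31. The mean CPM of single cells gave 43 higher in PyMT, and 298 higher and 730 lower in KPC. Without the 8% of cells with the most UMIs the KPC share was 12.6% and its tip cell median 0.33. Requiring 5 UMIs of *Apln* plus *Angpt2* gave shares of 6.96% and 9.29%, with 51 genes higher in PyMT. Among the 4471 genes detected in 10% of cells, 14 were higher and 59 lower in PyMT, and 111 and 201 in KPC. Among the 10064 genes detected in 1% of cells, these numbers were 71 and 594 in PyMT and 305 and 1170 in KPC. The number of genes tested thus differed between these settings. In 2 settings chosen after seeing the data, leaving out cells with at least 2 UMIs over *Krt8*, *Krt18*, *Prox1*, *Lyve1*, *Rgs5* and *Col1a1* gave a KPC tip cell median of 0.31, and leaving out members with *Angpt2* alone gave shares of 12.2% and 12.5%. The causes of these shifts were not tested. No paired analysis was possible because the labels give no replicate numbers. Members and other cells were compared within each library, and the libraries, from different tumors, were not fitted together as replicates. Depth limits the shares, since a cell needs 3 UMIs to be a member and other gate cells were shallower.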
